A study of Homo sapiens with 6 samples.

Results

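Deubiquitinating enzymes are proteases that cut ubiquitin, a small protein tag, from other proteins or from chains of ubiquitin. By trimming such chains they can spare a protein from the proteasome, end a signal, edit the marks on histones or recycle ubiquitin into the free pool. Human cells hold several catalytic families, among them the ubiquitin-specific proteases (USP), the ovarian tumour proteases (OTU), the ubiquitin C-terminal hydrolases (UCH) and the JAMM metalloproteases.

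The genes described here were taken by symbol, under a rule chosen with earlier results of these data known. The rule covers all USP genes with a plain number (and USP9X and USP27X) and the OTUD and UCHL genes. It also covers OTUB1, OTUB2, CYLD, BAP1, USPL1, ATXN3, STAMBP, BRCC3 and MYSM1. The rule found 71 genes among the 61806 rows of the deposited table, each with 1 row. They were measured by RNA-seq of poly(A) RNA in 293T, a long-established cell line from human embryonic kidney, after lipid transfection with a GFP plasmid (3 libraries) or a GFP-812 plasmid (3 libraries). The genotype labels say no more than GFP and GFP-812. The series is titled after truncated NEK1, a protein kinase, and the making of ribosomal RNA. The question put to the table is how RNA levels in cells given GFP-812 differed from those in cells given GFP. The labels do not say whether replicates were grown separately, so each p-value reflects the spread of these libraries, which may be technical. The share of cells that took up a plasmid is not given either.

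Library totals ran from 14255148 to 17613814 counts. NEK1 stood at 493.7 to 562.7 FPKM (counts scaled to exon length and library total) in the GFP-812 libraries and at 3.82 to 3.99 FPKM in the GFP libraries, which separates the 6 libraries as labelled. Of 5 markers listed for 293T, VIM, KRT8 and KRT18 were at 8.95 FPKM or more in every library, LHX1 at 1.37 to 2.04 FPKM and PAX2 at 0.34 to 0.7 FPKM. Of 7 kidney epithelium markers, LRP2 (1.23 to 1.79 FPKM), EPCAM (0.86 to 1.19), CDH1 (0.53 to 0.74) and AQP1 (0.27 to 0.84) were present at low levels. PAX8 and NPHS1 reached 0.04 and 0.02 FPKM, and UMOD was listed at 0 everywhere. The leukocyte genes PTPRC, CD3E and CD68 reached 0, 0.02 and 0.3 FPKM. The endothelial genes PECAM1, VWF and CDH5 reached 0.01, 0.02 and 0.02 FPKM. Of the fibroblast genes, COL1A1 was at 1.34 to 1.76 FPKM, and COL1A2 and DCN reached 0.01 and 0.02 FPKM. GFP replicate 3 lay apart from the other GFP libraries: ribosomal protein genes took 6.38% of its counts, as against 5.83% and 5.64% in GFP replicates 1 and 2 and 6.33% to 6.39% in the GFP-812 libraries.

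The promoters of 4 members that fell in the same comparison are printed here, and whether these genes are controlled together was not tested. They are those of USP1, the most abundant member, of CYLD, with the largest fall that passed the test, and of USP8 and OTUD7B, for which the longest stretches outside annotated exons were at hand. The sequences are RefSeq's (GRCh38.p14), 5′ to 3′ on the strand of the gene, and each ends on the base before the gene's start in the deposited table (hg38). They lie at chr1:62436145-62436296 (plus strand) for USP1, chr16:50741906-50742049 (plus) for CYLD, chr15:50424155-50424379 (plus) for USP8 and chr1:150010727-150010976 (minus) for OTUD7B. Capitals mark matches to the searched motifs, here GC boxes (GGGCGG) and CCAAT boxes (ATTGG) on either strand.
USP1: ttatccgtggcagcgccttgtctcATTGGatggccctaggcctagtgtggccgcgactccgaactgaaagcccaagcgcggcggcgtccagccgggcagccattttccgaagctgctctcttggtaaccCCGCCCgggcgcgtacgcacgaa
CYLD: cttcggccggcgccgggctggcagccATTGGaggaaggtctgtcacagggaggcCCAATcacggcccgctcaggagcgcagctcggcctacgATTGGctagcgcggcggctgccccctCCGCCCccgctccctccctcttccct
USP8: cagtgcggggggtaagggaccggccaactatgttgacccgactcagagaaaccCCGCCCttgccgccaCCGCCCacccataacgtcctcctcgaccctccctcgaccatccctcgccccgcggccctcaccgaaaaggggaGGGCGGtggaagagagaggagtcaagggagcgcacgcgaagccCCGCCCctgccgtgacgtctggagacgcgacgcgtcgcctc
OTUD7B: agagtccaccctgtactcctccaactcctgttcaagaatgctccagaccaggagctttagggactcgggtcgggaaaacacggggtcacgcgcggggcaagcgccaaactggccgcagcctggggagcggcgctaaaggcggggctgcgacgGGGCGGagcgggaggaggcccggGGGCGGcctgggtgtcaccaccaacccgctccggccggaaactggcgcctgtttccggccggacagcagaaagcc

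Promoters were found for 52 of the 71 members. In the 250 bases before the start, GC made up a median of 69.4% in members and 65.2% over 11659 genes tested with a promoter. A GC box stood in 40 of 52 member promoters (76.9%), in 66.7% of the tested genes' promoters and in 42.3% of all 27305 promoters of that length. An ETS motif (CCGGAAG) was found in 12 members (23.1%), 15.2% of tested genes and 8.82% of all promoters, and a TATA box (TATAAA) in 3 members (5.77%), 5.55% and 11.1%. The CCAAT box was in 15 members (28.8%), 35.0% of tested genes and 33.0% of all promoters. The E box (CACGTG) and the NRF1 core motif (GCATGCG) were each in 4 members (7.69%), against 8.70% and 5.51% of tested genes and 6.49% and 3.57% of all promoters. The cAMP response element (TGACGTCA) was in 0 of 52 members, 2.84% of tested genes and 1.77% of all promoters. Of the 9 fallen members with a promoter, 8 held a GC box, 3 an ETS motif and 0 a TATA box. Both strands were searched, and no matches overlap in the printed windows. These letter matches describe the windows and show no binding.

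Most deubiquitinating enzyme genes were expressed, over a wide range of levels. USP1, which removes ubiquitin from the DNA repair proteins FANCD2 and PCNA, was the most abundant, at a mean of 133.6 FPKM over the 6 libraries. It was followed by UCHL1, a hydrolase known for its abundance in neurons, at 59.5 FPKM, the proteasome-bound UCHL5 at 47.0 FPKM, USP9X at 45.2 FPKM, USP22 of the SAGA coactivator complex at 41.7 FPKM and BRCC3 at 36.4 FPKM. The ranges of UCHL5 (45.7 to 47.5 FPKM) and USP9X (43.0 to 49.1 FPKM) overlapped, so their order is not beyond the spread of libraries, while USP1 (124.8 to 145.8 FPKM) and UCHL1 (57.7 to 61.8 FPKM) stood clear of every other member. At the low end, USP29 and OTUD6A had 0 counts in every library. The limit of 3 counts that a count of 0 allows corresponds to 0.0533 FPKM for USP29 and 0.122 FPKM for OTUD6A in the shallowest library, for counting error only. USP26 and USP41 reached 0.03 and 0.04 FPKM at most. These 4 did not pass edgeR's filter on low counts, and the other 67 members were tested. FPKM divides by all exonic bases of a gene in the table, which for MYSM1 come to 27812, so levels of genes with many annotated exons read low.

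**Figure D1:**
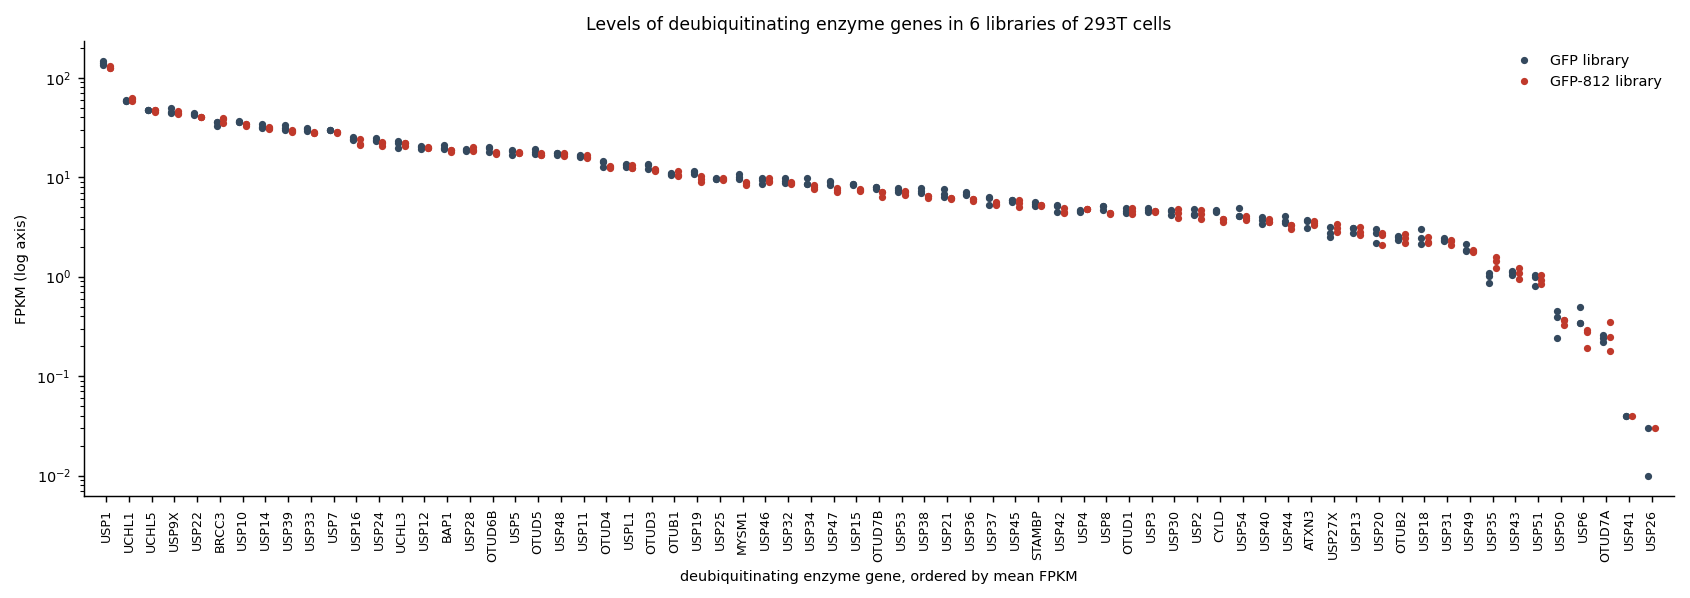
FPKM (log axis) of the 69 deubiquitinating enzyme genes with a count, ordered by their mean, with 1 point per GFP library (dark) and GFP-812 library (red); values of 0 are not drawn, and USP29 and OTUD6A have none. Levels run from USP1 at 124.8 to 145.8 FPKM down to USP26 at 0.03 FPKM or less, and the groups lie close together beside that range.

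In GFP-812 cells 10 of the 67 tested members fell, 1 rose and 56 did not pass the test (edgeR's quasi-likelihood test, Benjamini-Hochberg adjusted p under 0.05 over all 16834 genes tested). Over all genes tested 2.67% fell and 1.18% rose, as against 14.9% and 1.49% of members. Members had higher levels (median of mean FPKM 7.945 against 3.42) and smaller standard errors (median 0.0575 against 0.103) than all genes tested. Among all genes, the fallen share was 0.492% under 1 FPKM, 1.49% from 1, 5.15% from 5 and 4.42% from 20 FPKM. In these ranges 0 of 4, 2 of 21, 7 of 28 and 1 of 14 members fell. The part of level was not tested. The fallen members, by rising p, were MYSM1, CYLD, USP47, USP15, USP1, USP8, USP19, OTUD7B, USP38 and USP34, and the risen member was USP35. The falls were small, between 9.23% and 18.5%. Of the tested members 53 had a fitted log2 fold change below 0, and the median was -0.06 (quartiles -0.13 and -0.00314), where 48.2% of all genes lay below 0 and the median was 0.01. In FPKM, all 3 GFP-812 libraries lay below all 3 GFP libraries for 21 members (31.3%, against 12.1% of all genes tested) and above them for 2, USP35 and USP4 (2.99%, against 7.93%). Summed over members, the share of each library's counts was 0.631% to 0.640% with GFP-812 and 0.660% to 0.692% with GFP, where GFP replicate 3 was the lowest. In such bulk RNA, a fall in every cell and a larger fall in some of the cells cannot be told apart.

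The number of calls depended on single libraries. Leaving out GFP-812 replicate 1, 2 or 3 in turn left 9, 2 and 3 fallen members, where 1.97%, 0.851% and 1.21% of all genes tested fell. Leaving out GFP replicate 1, 2 or 3 gave 3, 5 and 17 fallen members, beside 1.07%, 1.76% and 4.69% of all genes. The median of the members stayed between -0.08 and -0.06 in these 6 fits. GFP replicate 3 was the lowest of the GFP libraries in FPKM for all 10 fallen members, for 41 of the 67 tested (61.2%) and for 33.5% of all genes tested. Among all 449 genes that fell, it was the lowest GFP library for 309 (68.8%). Its part, and that of its higher share of ribosomal protein counts, was not tested.

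**Figure D2:**
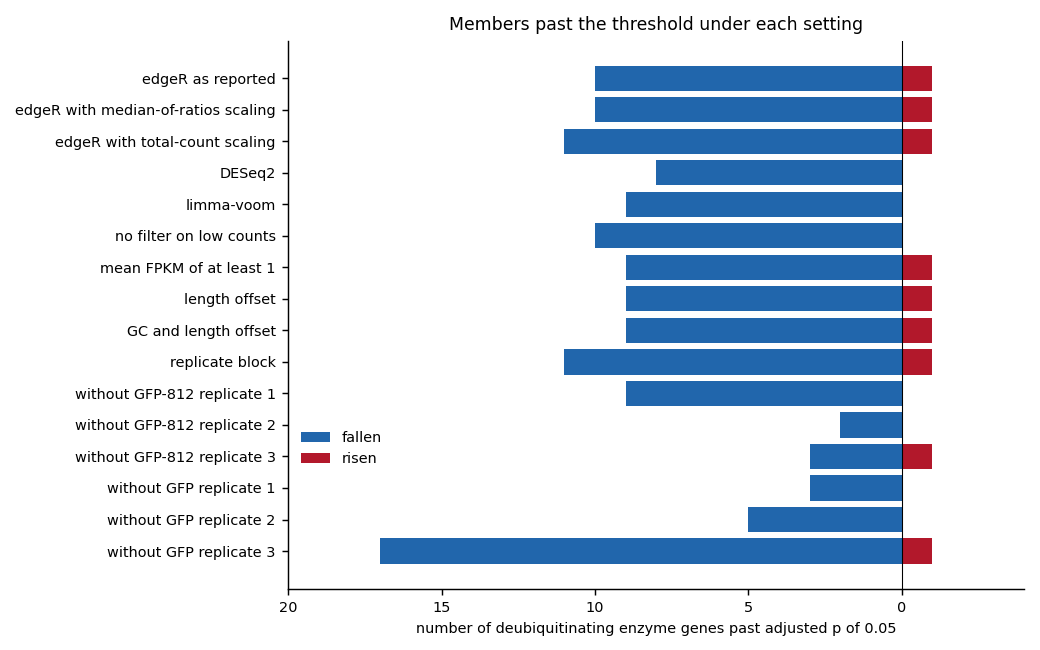
Number of deubiquitinating enzyme genes that fell (blue, to the left) or rose (red, to the right) at an adjusted p under 0.05, for the reported fit and each alternative. Fallen members number 8 to 11 across other tools, scalings, filters and offsets, and 2 to 17 when a library is left out. Of all genes tested 1.25% to 3.42% fell in the former fits and 0.851% to 4.69% in the latter.

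A role group drawn up for K63-linked and linear chains and for inflammatory and innate signalling gave 3 of the 10 falls among 9 members. This count and those of the role groups below stand beside falls in 14.9% of all tested members and 2.67% of all genes tested. Rises came to 1.49% and 1.18%. Not all members of this group are enzymes of K63-linked or linear chains. CYLD, which cuts such chains and is known as a brake on NF-kappaB, stood at 3.78, 3.77 and 3.57 FPKM in GFP-812 replicates 1, 2 and 3 and at 4.63, 4.62 and 4.50 FPKM in the GFP libraries. The groups did not overlap, and the means of 3.71 ± 0.118 and 4.58 ± 0.0723 FPKM (SD, n = 3 each) lay further apart than either spread. On the log2 scale the change was -0.30, with an SE of 0.0617 and an edgeR adjusted p of 0.00153. OTUD7B, an OTU enzyme with a preference for K11 chains, stood at 7.14, 6.25 and 7.16 FPKM against 7.93, 7.95 and 7.64 FPKM. GFP-812 replicate 2 was the lowest, and without it the log2 fold change went from -0.18 (SE 0.0541, adjusted p = 0.0419) to -0.12 (adjusted p = 0.423). USP15, known to act on receptors of the TGF-beta pathway, fell from 8.45 ± 0.173 to 7.44 ± 0.115 FPKM (SD, n = 3 each; log2 fold change -0.17, edgeR adjusted p = 0.0154), with no overlap. USP18, which removes the ubiquitin-like ISG15, USP25, USP13, OTUD1, OTUD5 and OTUD7A did not pass.

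Among 9 enzymes of histones H2A and H2B, MYSM1 alone fell. MYSM1, a metalloprotease that removes ubiquitin from histone H2A and is known for its part in blood cell formation, stood at 8.67, 8.42 and 8.88 FPKM in the GFP-812 libraries and 10.2, 10.9 and 9.5 FPKM in the GFP libraries. Every GFP-812 value was below every GFP value, at 8.66 ± 0.23 against 10.2 ± 0.69 FPKM (SD, n = 3 each), a change of -0.22 on the log2 scale (SE 0.0426, edgeR adjusted p = 0.000608). All 9 fitted log2 fold changes were below 0, from -0.22 to -0.03. So were those of 53 of the 67 tested members and of 48.2% of all genes tested, so the shared sign is not particular to this group. USP16, which acts on H2A and on the small ribosomal subunit, averaged 22.3 ± 1.64 FPKM with GFP-812 and 24.6 ± 0.839 FPKM with GFP (SD, n = 3 each). Its change of -0.13 did not pass (edgeR adjusted p = 0.145), but did when GFP-812 replicate 1 (0.0324) or GFP replicate 3 (0.0445) was left out. BAP1, the tumour suppressor that cuts H2A ubiquitin together with ASXL proteins, had a log2 fold change of -0.09 (95% interval -0.19 to 0.01; -0.05 without GFP replicate 3), and USP7, which stabilises MDM2, of -0.06 (-0.14 to 0.02). In the SAGA module USP22 stood at 40.2, 40.4 and 39.8 FPKM against 43.5, 43.7 and 42.5 FPKM. The groups did not overlap, but the fitted difference of -0.09 did not pass (edgeR adjusted p = 0.192). USP27X and USP51, which can take its place, did not pass either.

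**Figure D3:**
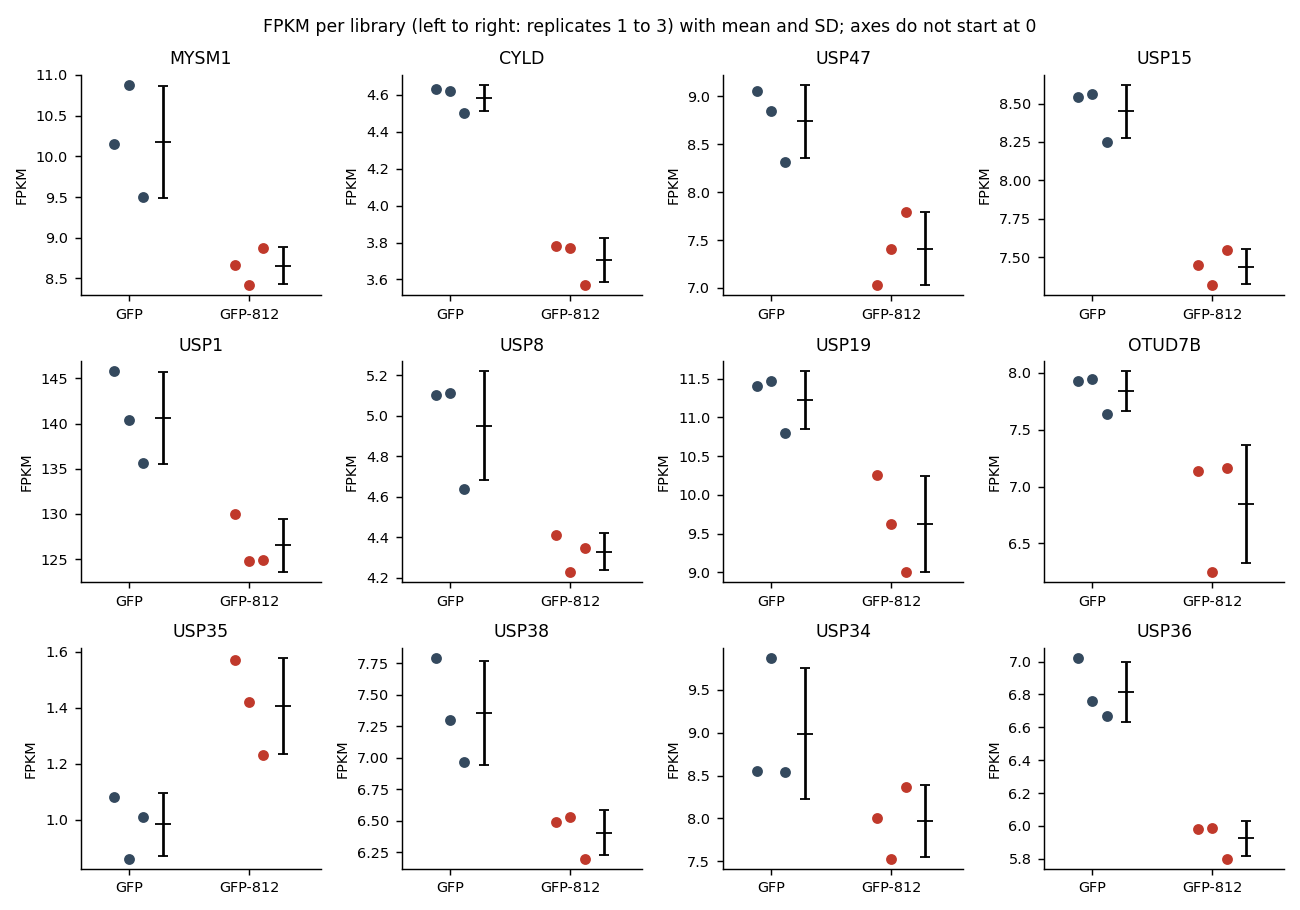
FPKM per library of the 11 members past the threshold and of USP36, which lay just outside it, in GFP (dark) and GFP-812 (red) cells; points are replicates 1 to 3 from left to right, bars are mean and SD, and the axes do not start at 0. The groups do not overlap in any panel, and USP35 is the single panel with GFP-812 above GFP. The panels were picked by p in these same libraries, so the lack of overlap is no separate support. Of all genes tested, 12.1% lay wholly lower with GFP-812 and 7.93% wholly higher.

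USP1 works bound to WDR48, a WD-repeat protein that also activates USP12 and USP46. USP1 stood at 129.9, 124.8 and 124.9 FPKM in the GFP-812 libraries and 145.8, 140.4 and 135.7 FPKM in the GFP libraries, which did not overlap. The fall came to 9.23% (log2 fold change -0.14, SE 0.0377, edgeR adjusted p = 0.0206). USP12 and USP46 had log2 fold changes of 0.01 each (SE 0.0502 and 0.0561), and WDR48 itself stood at 11.1 ± 0.433 against 11.3 ± 0.391 FPKM (SD, n = 3 each), none of them past the threshold. Whether USP1 differed from USP12 and USP46 in its change was not tested.

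Of 9 other enzymes of DNA damage and replication, 8 were tested, and 1 fell and 1 rose. USP47, known to control the level of DNA polymerase beta, stood at 7.03, 7.41 and 7.79 FPKM against 9.06, 8.85 and 8.32 FPKM, with no overlap (log2 fold change -0.22, SE 0.0503, edgeR adjusted p = 0.00383). USP35 was at 1.57, 1.42 and 1.23 FPKM in the GFP-812 libraries and 1.08, 0.86 and 1.01 FPKM in the GFP libraries, which is 1.44 times as high (0.53 on the log2 scale, SE 0.159, edgeR adjusted p = 0.046). It had the largest change of the 11 called members and also the lowest level. Its relative USP38 changed the other way, from 7.35 ± 0.413 to 6.41 ± 0.18 FPKM (SD, n = 3 each; log2 fold change -0.19, edgeR adjusted p = 0.0479). BRCC3, the K63-specific subunit of the BRCA1-A and BRISC complexes, averaged 37.9 ± 2.31 FPKM with GFP-812 and 34.8 ± 2.02 FPKM with GFP (SD, n = 3 each). These groups overlapped, and the difference of 0.13 on the log2 scale did not pass (edgeR adjusted p = 0.143). It was 0.09 without GFP replicate 3. USP24 had a log2 fold change of -0.11 (adjusted p = 0.122), and passed without GFP replicate 3 (0.0134).

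Of the enzymes of endosomes and receptor sorting, USP8 was the 1 of 6 that fell. USP8, which frees receptors and the sorting protein STAM of ubiquitin, stood at 4.41, 4.23 and 4.35 FPKM against 5.10, 5.11 and 4.64 FPKM (log2 fold change -0.18, SE 0.052, edgeR adjusted p = 0.0328), and GFP replicate 3 was nearest to the GFP-812 libraries. Its gene overlaps USP50 on the opposite strand. Since it is not known whether counting used strand, reads of the pair could be shared, though USP50 had 136 counts in all 6 libraries and USP8 9178. STAMBP, the metalloprotease that works beside USP8, was at -0.03 (SE 0.0508). USP6 had the largest fitted difference of the tested members, -0.63, at the very low levels of 0.253 ± 0.0551 and 0.39 ± 0.0866 FPKM (SD, n = 3 each), and did not pass (SE 0.223, edgeR adjusted p = 0.105; 0.0447 without GFP replicate 3). USP6 shares much of its sequence with USP32, and the ZNF232 gene on the opposite strand had 1246 counts to the 356 of USP6, so its value is uncertain.

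USP19, which has a form anchored in the membrane of the endoplasmic reticulum, fell from 11.2 ± 0.368 to 9.63 ± 0.62 FPKM (SD, n = 3 each), a change of -0.21 on the log2 scale (SE 0.0609, edgeR adjusted p = 0.0339). USP30, a mitochondrial enzyme that opposes mitophagy, was at -0.02 (SE 0.0921). USP34, a very large enzyme known from Wnt signalling, stood at 8.01, 7.53 and 8.37 FPKM against 8.55, 9.87 and 8.54 FPKM (log2 fold change -0.16, SE 0.0489, edgeR adjusted p = 0.0497). GFP replicate 2 was its highest library, and without it the log2 fold change was -0.09 (adjusted p = 0.382). Its overlapping neighbour AHSA2P on the opposite strand had 21.8% as many counts.

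None of the 4 enzymes that act in the nucleolus or on ribosomes passed. All 4 fitted values were below 0, as were those of 79.1% of tested members and 48.2% of all genes tested. USP36, the nucleolar enzyme that deubiquitinates fibrillarin and nucleophosmin, stood at 5.98, 5.99 and 5.80 FPKM in the GFP-812 libraries and 7.02, 6.76 and 6.67 FPKM in the GFP libraries. These groups did not overlap, and the difference lay just outside the threshold (log2 fold change -0.19, SE 0.0595, edgeR adjusted p = 0.0548). USP36 passed with total-count scaling (adjusted p = 0.0331), the GC and length offset (0.0409), the replicate block (0.048) and without GFP replicate 3 (0.0322). OTUD3 had a log2 fold change of -0.12 (adjusted p = 0.219, and 0.0433 without GFP replicate 3). USP10, which acts on p53 and on small-subunit ribosomal proteins, was at -0.08 (95% interval -0.16 to 0.01) and USP9X at -0.04 (-0.12 to 0.03).

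**Figure D4:**
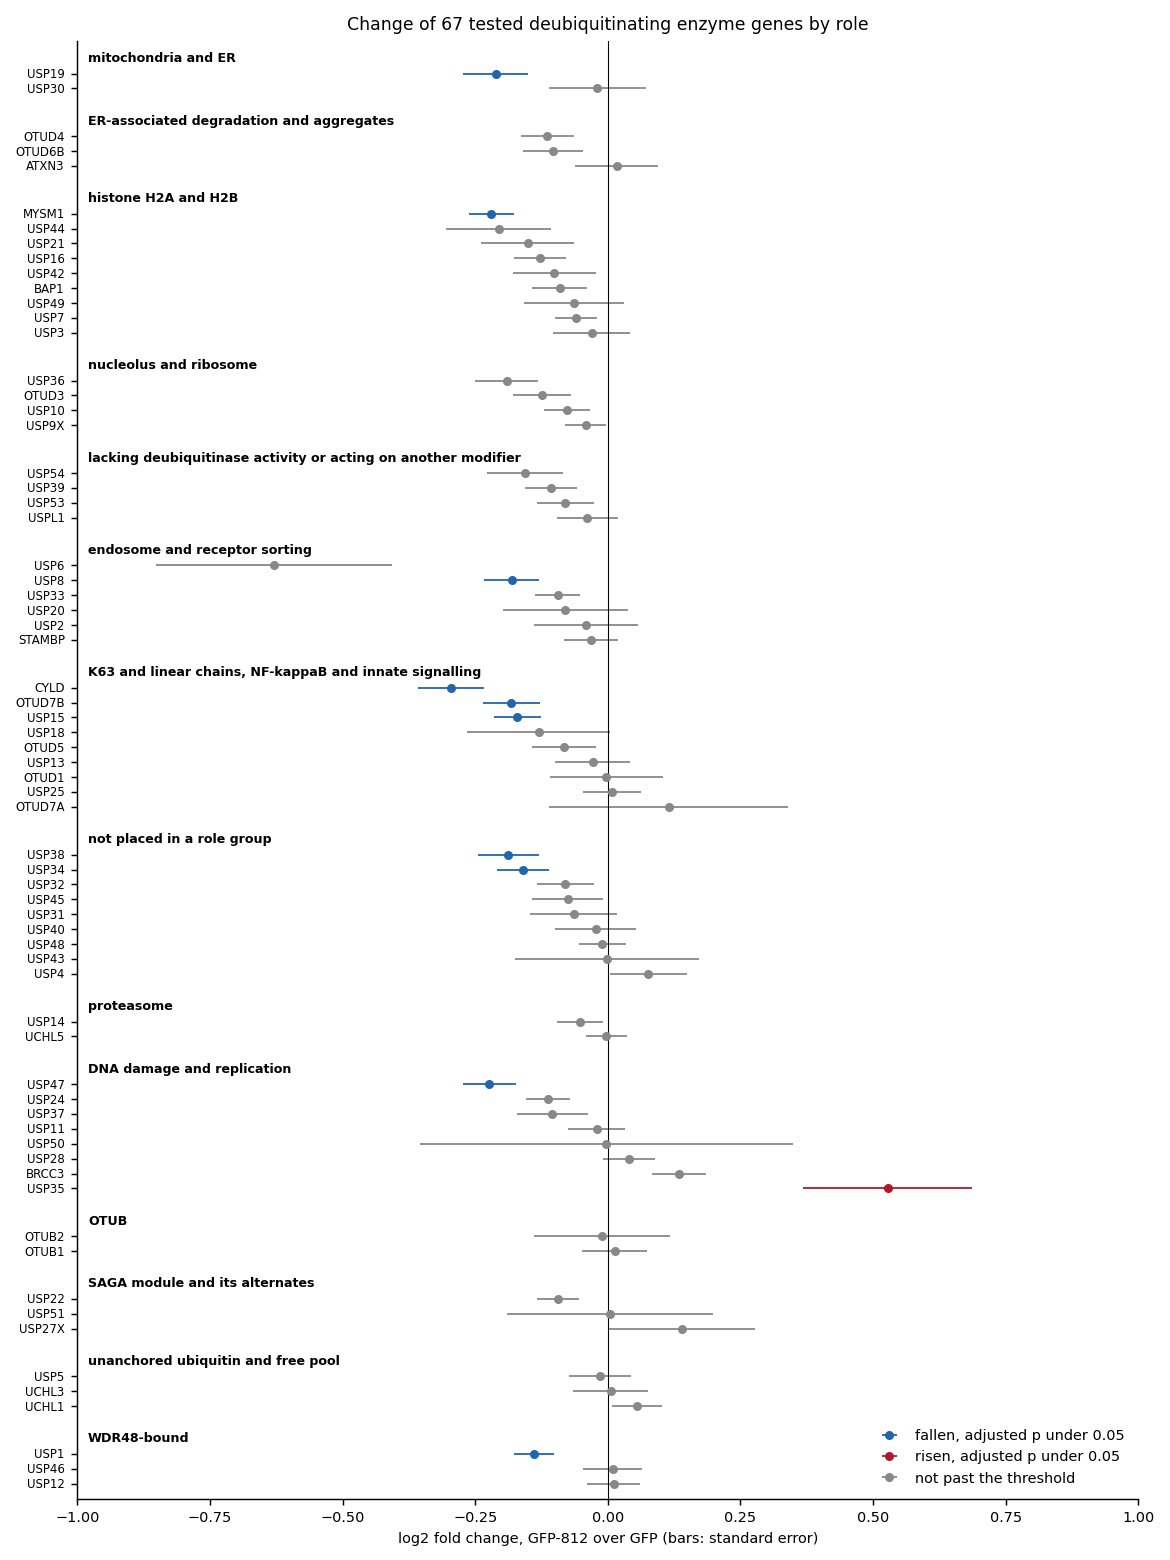
Log2 fold change of GFP-812 over GFP with its standard error for the 67 tested members, arranged by role; blue fell, red rose and grey did not pass at an adjusted p under 0.05. Falls are spread over 6 of the role groups and the genes placed in none, and most grey points lie left of 0. Of all genes tested 48.2% lay below 0.

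The other groups had no member past the threshold. Of the proteasome-bound pair, USP14 was at 31.0 ± 0.653 against 32.5 ± 1.52 FPKM and UCHL5 at 46.7 ± 0.901 against 47.2 ± 0.322 FPKM (SD, n = 3 each), with log2 fold changes of -0.05 (95% interval -0.14 to 0.03) and -0.0032 (-0.08 to 0.07). UCHL5 shares its locus with RO60 on the opposite strand, which had 76.0% as many counts. UCHL1, UCHL3 and USP5, which feed the pool of free ubiquitin, were at 0.05 (-0.04 to 0.15), 0.01 (-0.13 to 0.14) and -0.02 (SE 0.0583). OTUB1, which can also block an E2 enzyme without use of its protease activity, was at 0.01 (-0.11 to 0.13). ATXN3, the gene of Machado-Joseph disease, was at 0.02 (-0.14 to 0.17). USP39, a splicing factor without protease activity, averaged 29.1 ± 0.814 FPKM with GFP-812 and 31.6 ± 1.84 FPKM with GFP (SD, n = 3 each; edgeR adjusted p = 0.257). Opposite-strand neighbours with 30.8%, 21.7% and 24.7% as many counts overlap USP14 (THOC1), OTUB1 (MACROD1) and USP39 (C2orf68). Missing the threshold does not show equal levels, and the intervals give the range of change that these data allow.

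By catalytic family, 8 of 50 tested USP genes (CYLD among them) fell and 1 rose, as did 1 and 0 of 9 OTU genes and 1 and 0 of 3 JAMM genes. Of the 4 UCH genes and of the single Josephin gene, ATXN3, 0 passed in either direction. Beside these counts, 14.9% of all tested members fell and 1.49% rose, and 2.67% and 1.18% of all genes tested.

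Most of the fallen members, though not all, were among the longest. The exonic size of all 10 in the table had a median of 13337 bases (3869 to 27812). It was 6324 bases in members that did not pass, 6885 in all members tested and 4862 over all genes tested. With a bound of 12000 bases, set after the data were seen, 7 of 13 longer members and 3 of 54 shorter members fell, against 6.07% and 2.33% of all genes tested on either side. The 3 shorter ones were USP1, USP19 and USP38. With an offset that removed in each library the trend on exonic size, 9 members fell and 1 rose, and the median of the members was -0.05. With GC content and exonic size removed together, 9 fell and 1 rose. In these 2 fits 2.85% and 2.79% of all genes tested fell. MYSM1, CYLD, USP47, USP15, USP1, USP8, USP19 and OTUD7B passed in both of these fits.

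**Figure D5:**
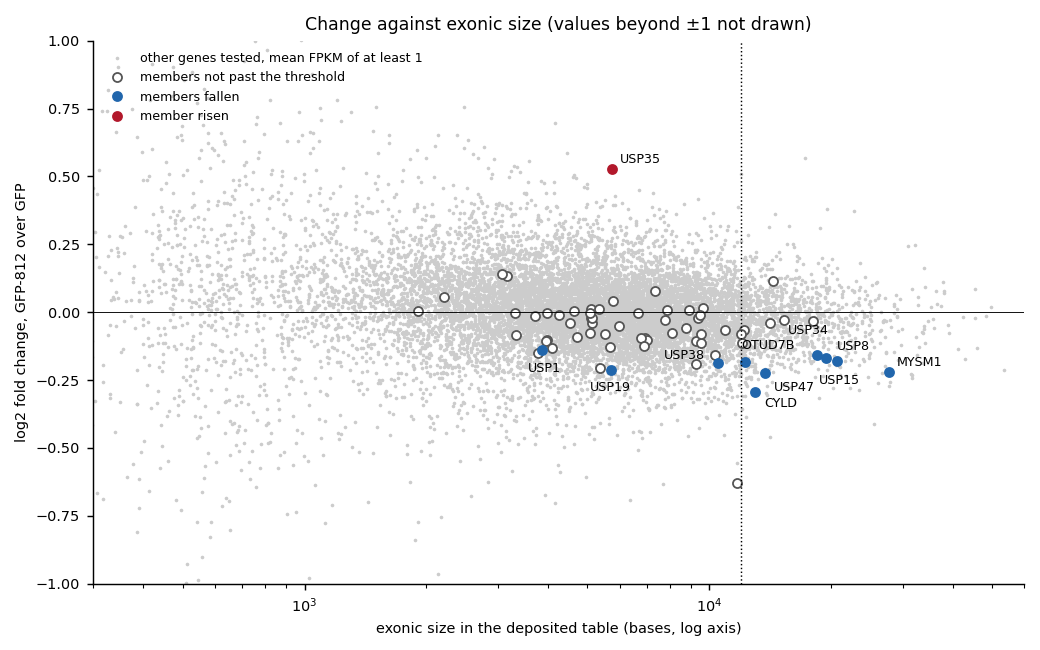
Log2 fold change of GFP-812 over GFP against exonic size (log axis) for members (circles) and other genes tested with a mean FPKM of at least 1 (grey dots); the dotted line is at 12000 bases, and values beyond ±1 and NEK1 are not drawn. Of the 10 fallen members (blue) 7 lie to the right of the line, and USP35 (red) lies to its left.

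MYSM1 and CYLD passed under each of the 15 alternatives run. The other 9 called members each lost the call when some single library was left out, at the edgeR adjusted p given here. USP47 missed the threshold with GFP-812 replicate 2 (0.0506) or GFP replicate 1 (0.0576) removed. USP15 and USP1 missed it in 3 of the 6 such fits, those lacking GFP-812 replicate 2, GFP-812 replicate 3 or GFP replicate 1 (0.0771 to 0.156 and 0.173 to 0.223). USP8, USP19 and OTUD7B missed it in these fits and in that lacking GFP replicate 2 (0.11 to 0.222, 0.0968 to 0.299 and 0.0685 to 0.423). USP38 passed in just 1 of the 6 fits, that lacking GFP replicate 3 (0.071 to 0.326 in the others). USP34 missed the threshold on removal of any GFP-812 library or of GFP replicate 2 (0.0663 to 0.397). USP35 missed it on removal of replicate 1 or 2 of either group (0.0671 to 0.2).

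Genes around these enzymes were read beside the same 2.67% of all genes tested that fell and 1.18% that rose. A list of 31 further deubiquitinases, proteases of ubiquitin-like tags and relatives also held genes not known as such proteases, PRPF8 among them. Of the 31, 30 were tested, and 3 fell, 0 rose and 27 did not pass (median log2 fold change -0.02). YOD1, an OTU enzyme of endoplasmic reticulum-associated degradation, was at 25.3 ± 0.268 against 28.9 ± 1.97 FPKM, SENP6, which trims SUMO chains, at 10.8 ± 0.186 against 12.3 ± 0.364 FPKM, and the Josephin gene JOSD1 at 14.6 ± 0.656 against 16.8 ± 0.63 FPKM (SD, n = 3 each). Of 39 binding partners 1 fell and 38 did not pass (median -0.01). This was UIMC1, the ubiquitin-binding subunit of the BRCA1-A complex that BRCC3 belongs to, at 16.9 ± 0.959 against 19.5 ± 0.397 FPKM (SD, n = 3 each), a change of -0.19 on the log2 scale (edgeR adjusted p = 0.0255).

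The genes that attach ubiquitin were described in the same way. The 20 genes of ubiquitin, related tags and their E1 enzymes had a median log2 fold change of 0.01. Of 34 E2 conjugating enzymes 2 fell (median -0.02): BIRC6, a very large inhibitor of apoptosis, at -0.21 (adjusted p = 0.00155), and UBE2J2 of the endoplasmic reticulum at -0.30 (0.0106). Among 42 HECT and RBR ligases (median -0.07), ARIH1 fell, by 0.15 on the log2 scale (edgeR adjusted p = 0.0312). Each of the genes named from these lists lost its call without 1 to 5 of the libraries. BIRC6 did so without GFP-812 replicate 2 alone (0.0511), and the highest adjusted p was 0.152 for YOD1, 0.133 for SENP6, 0.27 for JOSD1, 0.225 for UIMC1, 0.137 for UBE2J2 and 0.273 for ARIH1.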

How the data were processed

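RNA of 6 libraries of 293T cells (GFP and GFP-812, 3 each) was analysed from 1 deposited table. The submitters' processing notes name HISAT2 2.2.1, HTSeq 0.6.1, cutadapt 1.9.1, FastQC 0.10.1 and the build hg38. Annotation release and strand setting: not given in the sources used here. The deposited counts are raw read counts per Ensembl gene. The deposited FPKM equal those counts divided by exonic size and library total (100% of values within 0.0051), so no other normalization is in them. Every count column was mapped to a sample by its title.

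The main test was edgeR 4.0.16 in R 4.3.3 (filterByExpr, TMM, quasi-likelihood F test, group as the only term), fitted on all 16834 genes that passed the filter, with Benjamini-Hochberg adjustment over all of them and a threshold of 0.05. It was tested on simulated data with changed genes drawn from all levels. Of 1.2-fold changes 37.3% were recovered, of 1.5-fold 64.2% and of 2-fold 68.2%, with 4 false calls. Many changes of 1.2-fold would thus be missed. Standard errors came from the F statistic, and 95% intervals use the normal approximation. Alternatives were other scalings, DESeq2 1.42.0, limma-voom (limma 3.58.1), other filters, an offset on exonic size (spline with 4 degrees of freedom), the replicate number as a block and each library left out; the offset on GC content and size, for which 98.2% of genes tested had a GC value, was added after the data were seen.

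Libraries of a group differed beyond counting noise (chi-square per degree of freedom 2.13 to 4.03), so none was counted as a duplicate. The members, the 5 pathway lists (166 entries) and the role groups were chosen with earlier results of these data known. Named were all members past the threshold, the 6 next by p, the 6 with the highest FPKM, 17 members fixed by name and up to 3 called genes per list, of which some are not reported here; members named beside them to complete a role group were chosen after their values were seen. Promoter windows (250 bases before the start, 1 per gene) were read from RefSeq and trimmed of GENCODE exons before printing. No promoter was at hand for ATXN3, BAP1, MYSM1, OTUD6B, OTUD7A, STAMBP, USP18, USP24, USP26, USP31, USP37, USP41, USP42, USP43, USP44, USP48, USP51, USP9X and USPL1.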

Additional observations from a re-analysis of the deposited data

How the results depend on the processing

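The number of members past the threshold was 11, and 2 to 18 when 1 library was left out; the same range was 209 to 1317 for all genes (647 with every library) and 1 to 25 for the pathway lists (9). The lowest of each came without GFP-812 replicate 2 and the highest without GFP replicate 3. The pathway lists had 14 calls with total-count scaling. Under the other tools, scalings, filters and offsets, members past the threshold numbered 8 to 12 and all genes past it 523 to 736. USP35 lost its call with limma-voom (adjusted p = 0.0578) and with no filter on low counts (0.0647), and DESeq2 gave no adjusted p for 15 members, USP35 among them. USP38 lost its own with DESeq2 (0.051), the length offset (0.0583) and the GC and length offset (0.0875), and USP34 with DESeq2 (0.0704), limma-voom (0.0571), a mean FPKM of at least 1 (0.0568) and the GC and length offset (0.0683). JOSD1 lost its call with no filter (0.0531).

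The sign changed in members near 0 that were not called. UCHL5 was at 0.00423 with a mean FPKM of at least 1, 0.00375 with the length offset, 0.0231 with the GC and length offset and -0.0098 to 0.00665 without single libraries. UCHL3 was at -0.00711 with total-count scaling, -0.0403 with the length offset, -0.0164 with the GC and length offset and -0.0597 to 0.051 without single libraries. Without single libraries USP9X lay at -0.0705 to 0.00294, OTUB1 at -0.0337 to 0.0466 and ATXN3 at -0.0628 to 0.0577. Other uncalled members kept their sign and moved by over 1.5 times: USP14 to -0.0187 without GFP replicate 2, -0.0803 without GFP replicate 3 and -0.0272 with the GC and length offset, USP39 to -0.0599 without GFP replicate 1, USP10 to -0.0504 without GFP-812 replicate 3, USP16 to -0.193 without GFP-812 replicate 1 and -0.082 without GFP-812 replicate 3, and UCHL1 to 0.0144 and 0.00773 with the length offset and the GC and length offset. The causes were not tested.

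With the replicate number as a block 12 members, 777 of all genes and 10 pathway genes passed. The replicate numbers share only a number: same-numbered libraries correlated at 0.117, 0.0038 and -0.0013 in their deviations from the group means, and not every library correlated best with its own number. Depth sets the precision at low levels: the standard error was 0.351 for USP50 and 0.0377 for USP1.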
